A study of Saccharomyces cerevisiae with 18 samples.

Results

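The genes described here are the 33 genes for the subunits of the budding yeast 26S proteasome, the assembly factor UMP1, the cap protein BLM10 and the activator RPN4. They were chosen by name as a known set, with earlier results of these data known. They make up 36 of the 7130 genes in the count table, and all 36 were among the 5719 genes that passed the filter on low counts. The set holds 14 genes of the 20S core, 19 genes of the 19S regulatory particle, and UMP1, BLM10 and RPN4.

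The 26S proteasome degrades proteins marked with ubiquitin: the 19S particle recognises, unfolds and feeds them into the 20S core, whose inner beta ring holds the proteolytic sites. In yeast the zinc-finger factor Rpn4 binds a shared promoter element upstream of most proteasome genes and raises their transcription, and Rpn4 protein is itself degraded rapidly by the proteasome, which gives a feedback loop. Transcription of RPN4 is known to be driven by the heat shock factor Hsf1, among others. Fes1, whose gene differs between the strains, is a nucleotide exchange factor for the Hsp70 chaperones of the cytosol and nucleus, made by alternative splicing as a short cytosolic isoform (Fes1S) and a long nuclear isoform (Fes1L).

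Poly(A)-selected RNA of log-phase Saccharomyces cerevisiae grown in YPD at 25 °C was sequenced from 4 strains, which are labelled fes1Δ (genotype fes1-delta), fes1ΔS (fes1-deltaS), fes1ΔL (fes1-deltaL) and WT, with 3 libraries each. Each genotype is 1 strain, the labels name no further allele, and the libraries come from separate RNA isolations, so that p-values measure the spread between isolations. A further 6 samples, fes1Δ and WT after heat shock at 37 °C for 30 minutes, were not analysed here. Library totals ran from 7608550 to 10246711 counts.

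The count of FES1 itself went against 1 label. FES1 stood at 157, 151 and 168 CPM (counts per library size, in the usual depth-scaled unit, with TMM-normalised library sizes) in the libraries labelled fes1Δ, at 1526, 1399 and 1377 CPM in those labelled fes1ΔS, at 149.7, 144 and 144 CPM in those labelled fes1ΔL, and at 165, 158 and 150.3 CPM in WT. The libraries labelled fes1Δ thus had FES1 counts that overlapped those of WT, while URA3, a common selection marker, had 1590 to 1868 counts in these libraries and at most 3 in each of the other 9. FES1 was far above WT in the libraries labelled fes1ΔS (means of 1434 and 158 CPM), which that label does not explain either. Whether labels were exchanged between strains was not tested. The sources used here do not say which part of FES1 was removed, so the strains are named by their labels throughout, and a direction given for a strain is that of the libraries which carry its label.

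RPN4 mRNA was the only member that passed the test between strains. It was 1.48-fold higher in the fes1Δ-labelled strain and 1.59-fold higher in fes1ΔS than in WT, and not called in fes1ΔL. The level of RPN4 (YDL020C) was 252, 307 and 300.3 CPM in fes1Δ-labelled libraries, 317, 298 and 307 CPM in fes1ΔS libraries, 177, 176 and 181 CPM in fes1ΔL libraries, and 199, 184 and 197 CPM in WT libraries. Every fes1Δ-labelled and fes1ΔS library lay above every fes1ΔL and WT library. Of all tested genes, 11.6% and 13.6% lay above WT without overlap in these 2 strains, and 11.6% and 12.6% above fes1ΔL. The fes1ΔL libraries lay just below those of WT with no overlap, as for 6.24% of all tested genes. The means were 287 ± 29.8 CPM in fes1Δ-labelled libraries, 307 ± 9.68 CPM in fes1ΔS, 178 ± 2.96 CPM in fes1ΔL and 193 ± 7.98 CPM in WT (SD, n = 3 each), resting on 1634 to 3147 counts of RPN4 per library.

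By edgeR's quasi-likelihood test with Benjamini-Hochberg adjustment over all 5719 genes, the log2 fold change of RPN4 was 0.57 in fes1Δ-labelled libraries against WT (SE 0.067, 95% interval 0.43 to 0.71, adjusted p = 6.60e-06). In fes1ΔS against WT it was 0.67 (SE 0.067, interval 0.53 to 0.81, adjusted p = 7.07e-07). Set against fes1ΔL in place of WT, RPN4 was 1.61-fold higher in the fes1Δ-labelled strain (log2 0.69, adjusted p = 4.45e-07) and 1.73-fold higher in fes1ΔS (log2 0.79, adjusted p = 6.39e-08). The contrasts share libraries and are not independent of each other. For fes1ΔL against WT the log2 fold change was -0.12 (interval -0.26 to 0.02, adjusted p = 0.984), and for the fes1Δ-labelled strain against fes1ΔS it was -0.10 (interval -0.24 to 0.04, adjusted p = 0.591). Neither difference passed the test, and neither interval reached below -0.26 on the log2 scale.

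**Figure D1:**
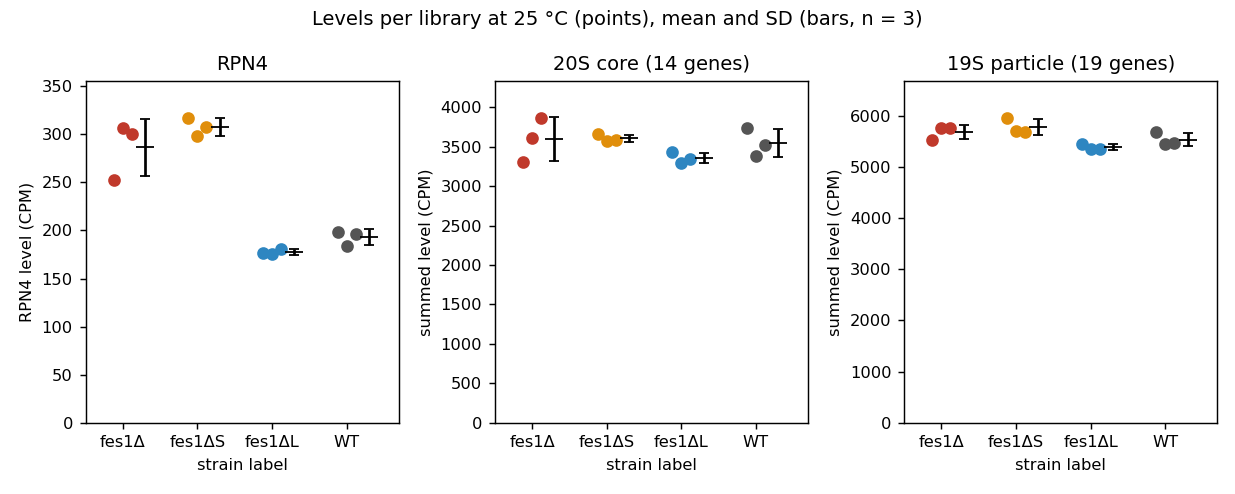
RPN4 level and the summed levels of the 14 genes of the 20S core and the 19 genes of the 19S particle (CPM, y axes from 0) in each of 12 libraries at 25 °C, by strain label; points are libraries, and the black marks are the mean and SD of 3. RPN4 lies at 252 to 317 CPM in fes1Δ-labelled and fes1ΔS libraries and at 176 to 199 CPM in fes1ΔL and WT, while the summed subunit levels of the strains lie close together.

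The subunit genes did not move with RPN4 by an amount that passed the test. Of the 36 members, 1 was called in the fes1Δ-labelled strain against WT, where 12.9% of all tested genes were called, and 1 in fes1ΔS against WT, where 6.66% were called. For fes1ΔL against WT edgeR called 0 members, with 1 member (PRE5) at an unadjusted p under 0.05 and 0 by DESeq2, beside 0.0699% of all genes called and 4.06% at an unadjusted p under 0.05. Set against fes1ΔL, 1 member was called in the fes1Δ-labelled strain, beside 9.51% of all genes, and 1 in fes1ΔS, beside 4.83%. Between the fes1Δ-labelled strain and fes1ΔS, edgeR called 0 members, with 0 at an unadjusted p under 0.05 and 0 by DESeq2, beside 2.47% of all genes called and 12.6% at an unadjusted p under 0.05. The single call in each of 4 comparisons was RPN4. Without the first fes1Δ-labelled library the calls in that strain were 2 against WT and 5 against fes1ΔL, and without the third they were 4 and 2, with RPN4 among them each time. In fes1ΔS against fes1ΔL, DESeq2 called 2 members and edgeR with only those 2 strains called 6.

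The 95% intervals of the other 35 members give the range of change left possible for each gene taken alone. Calls were adjusted over all tested genes and the intervals were not, so the interval of an uncalled gene can leave out 0. The log2 fold changes of these members ran from -0.17 (SEM1) to 0.18 (BLM10) in the fes1Δ-labelled strain against WT, with every 95% interval between -0.31 and 0.32. In fes1ΔS against WT they ran from -0.19 (SEM1) to 0.18 (BLM10), with every interval between -0.33 and 0.32. In the fes1Δ-labelled strain against fes1ΔS all 36 members had intervals within 0.25 of 0 on the log2 scale. The interval of RPN4 itself began at 0.43 and at 0.53 in the 2 strains against WT, above the upper end of every other member's interval.

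Most of the 35 other members lay slightly to 1 side, by less than the test could call gene by gene. In the fes1Δ-labelled strain 25 of them were above WT and 10 below, with a median log2 fold change of 0.03, where 50.1% of all tested genes were above 0. In fes1ΔS 25 were above WT and 10 below, with a median of 0.05, beside 49% of all genes above 0. In fes1ΔL only 4 were above WT and 31 below, with a median of -0.06, beside 50.9% of all genes below 0. The median over all tested genes was 0.00 in each of these comparisons. Leaving out 1 library in turn moved the members' median between -0.0012 (without the third fes1Δ-labelled library) and 0.08 (without the first WT library) in the fes1Δ-labelled strain. It moved between 0.02 (without the second WT library) and 0.08 (without the first) in fes1ΔS, and between -0.09 (without the second WT library) and -0.03 (without the first) in fes1ΔL. The members share libraries and a regulator, so these counts are a description and have no test. The SD of the members' median log2 level between libraries of 1 strain was 0.0461, close in size to these medians. That SD is for single libraries, while these medians compare groups of 3 libraries, so it is wider than their own spread. The FPKM deposited by the authors cover 22 of these members, whose medians on counts were 0.06 in both the fes1Δ-labelled strain and fes1ΔS against WT. On FPKM the sign of these medians turned, to -0.03 in both. The median of all genes with FPKM was lower still, at -0.08 in the fes1Δ-labelled strain and -0.07 in fes1ΔS against WT. The members' median in fes1ΔL stayed below 0 on FPKM, at -0.04.

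Against fes1ΔL the same members lay further apart. Of the 35, 30 were higher in the fes1Δ-labelled strain and 5 lower, with a median log2 fold change of 0.09, beside 50.7% of all genes above 0. The libraries of these 2 strains did not overlap for 12 members, all higher in the fes1Δ-labelled strain, beside 11.6% of all genes on that side and 13.1% on the other. In fes1ΔS against fes1ΔL 31 were higher and 4 lower, with a median of 0.10, beside 49.4% of all genes above 0. The libraries of the 2 strains did not overlap for 21 members that were higher in fes1ΔS and 1 that was lower (SEM1), against 12.6% and 13% of all tested genes. At an unadjusted p under 0.05, 13 of the 35 lay on the higher side in fes1ΔS, beside 7.68% of all genes, and the smallest adjusted p was 0.0844, for RPN7. Over the 22 members with FPKM, the medians on FPKM were -0.01 for the fes1Δ-labelled strain and 0.02 for fes1ΔS against fes1ΔL. The same 22 stood at 0.09 and 0.11 on counts, and the median of all genes on FPKM was at -0.09 and -0.08.

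**Figure D2:**
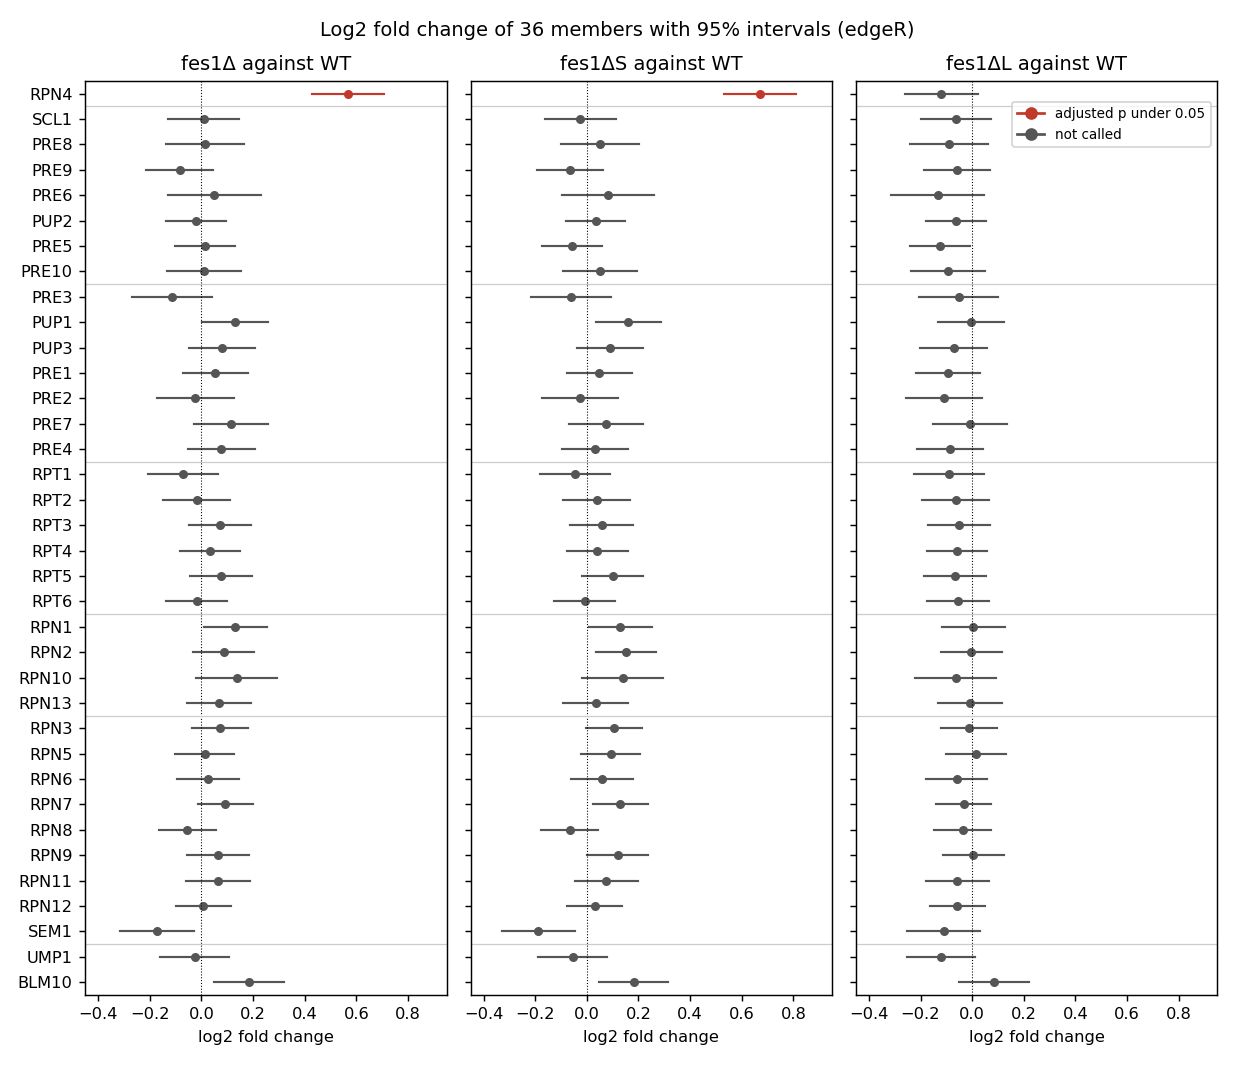
Log2 fold change of each of the 36 members against WT (points) with 95% intervals (lines), by strain label; red marks an adjusted p under 0.05. RPN4 stands apart at 0.57 and 0.67 in the fes1Δ-labelled strain and fes1ΔS, and in fes1ΔL 32 of the 36 points lie left of 0 with no call.

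The alpha ring of the 20S core, which gates entry to the catalytic chamber, showed no called gene among its 7 members. Their median log2 fold change was 0.01 in the fes1Δ-labelled strain, 0.03 in fes1ΔS and -0.09 in fes1ΔL against WT, and all 7 were below WT in fes1ΔL. PRE6 had the lowest fold change of any subunit there: its level was 226, 258 and 297 CPM in fes1Δ-labelled libraries, 266, 277 and 254 CPM in fes1ΔS, 235, 216 and 235 CPM in fes1ΔL, and 269.8, 225 and 259 CPM in WT. The fes1ΔL and WT libraries overlapped, and the log2 fold change of PRE6 was -0.13 (interval -0.31 to 0.04, adjusted p = 0.984). PRE5 came next, at 235, 246 and 265 CPM in fes1Δ-labelled libraries, 239, 235 and 234 CPM in fes1ΔS, 227, 223 and 227 CPM in fes1ΔL, and 255, 237 and 246 CPM in WT. All 3 fes1ΔL libraries were below all WT libraries for PRE5, as for 6.24% of all tested genes (log2 -0.12, interval -0.24 to -0.01, adjusted p = 0.984).

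The beta ring holds the 3 catalytic subunits, encoded by PRE3 (caspase-like), PUP1 (trypsin-like) and PRE2 (chymotrypsin-like). Its 7 genes had a median log2 fold change of 0.08 in the fes1Δ-labelled strain, 0.05 in fes1ΔS and -0.07 in fes1ΔL against WT, with no call. PUP1 stood at 176, 193 and 204 CPM in fes1Δ-labelled libraries, 189.9, 194 and 202 CPM in fes1ΔS, 182, 169.6 and 170.4 CPM in fes1ΔL, and 178, 168 and 178 CPM in WT. Every fes1ΔS library was above every fes1ΔL and WT library for PUP1, as for 12.6% of all tested genes against fes1ΔL and 13.6% against WT. Its log2 fold change in fes1ΔS against WT was 0.16 (interval 0.03 to 0.29, adjusted p = 0.130). PRE3 went the other way: it had 145, 183 and 187 CPM in fes1Δ-labelled libraries, 182, 175 and 176 CPM in fes1ΔS, 181, 185 and 170.0 CPM in fes1ΔL, and 189, 182 and 185 CPM in WT. A single fes1Δ-labelled library set the low mean of PRE3, and its log2 fold change was -0.11 in that strain against WT (interval -0.27 to 0.04, adjusted p = 0.358). PRE2, the third catalytic gene, was at -0.02, -0.03 and -0.11 on the log2 scale in the fes1Δ-labelled strain, fes1ΔS and fes1ΔL against WT, so that the 3 catalytic genes did not share a direction in the first 2 strains.

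The base of the 19S particle joins the ring of 6 ATPases (RPT1 to RPT6), which unfolds substrates, to 4 other subunits. None of the 6 ATPase genes was called by edgeR with all 12 libraries in any comparison, though RPT5 was in fes1ΔS against fes1ΔL with only those 2 strains in the fit. Against WT, 0 had an unadjusted p under 0.05 against WT (26.1% of all genes did in the fes1Δ-labelled strain and 20.9% in fes1ΔS), DESeq2 called none, and their medians were 0.01, 0.04 and -0.06 on the log2 scale in the fes1Δ-labelled strain, fes1ΔS and fes1ΔL against WT. All 6 ATPase genes were below WT in fes1ΔL, between -0.09 and -0.05. The 4 other base genes, RPN1 and RPN2 (the large scaffold subunits) and RPN10 and RPN13 (ubiquitin receptors), were all above WT in both the fes1Δ-labelled strain and fes1ΔS, with medians of 0.11 and 0.13, and at -0.01 in fes1ΔL. RPN10 had 224, 238 and 260.1 CPM in fes1Δ-labelled libraries, 247, 232 and 243 CPM in fes1ΔS, 226, 196 and 205 CPM in fes1ΔL, and 238, 194 and 224 CPM in WT. The WT libraries of RPN10 spread over a wide range and overlapped those of every other strain (log2 0.14, adjusted p = 0.267 in the fes1Δ-labelled strain and 0.307 in fes1ΔS against WT). RPN2 was at 550.4, 534 and 521 CPM in fes1Δ-labelled libraries, 596, 556 and 527 CPM in fes1ΔS, 498, 500.3 and 510.0 CPM in fes1ΔL, and 504, 499 and 509 CPM in WT. All 6 libraries of the fes1Δ-labelled strain and fes1ΔS were above all 6 of fes1ΔL and WT for RPN2. Of all tested genes, 11.6% in the fes1Δ-labelled strain and 13.6% in fes1ΔS lay above WT without overlap, and 11.6% and 12.6% above fes1ΔL. The log2 fold change of RPN2 against WT was 0.09 (adjusted p = 0.355) and 0.15 (adjusted p = 0.120), neither of which passed the test.

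The lid of the 19S particle removes ubiquitin chains through the metalloprotease Rpn11 and holds 9 genes. Their median log2 fold changes were 0.03 in the fes1Δ-labelled strain, 0.08 in fes1ΔS and -0.04 in fes1ΔL against WT, with no call. SEM1, which encodes the smallest lid subunit, lay lowest of all members in the fes1Δ-labelled strain and fes1ΔS. SEM1 had 98.6, 102 and 116 CPM in fes1Δ-labelled libraries, 107, 104 and 102 CPM in fes1ΔS, 111, 110.8 and 108.7 CPM in fes1ΔL, and 130.2, 115 and 111 CPM in WT. The WT library at 130.2 CPM stood above all others. Every fes1ΔS and fes1ΔL library was below every WT library, as for 14.5% and 6.24% of all tested genes. The log2 fold change of SEM1 was -0.17 in the fes1Δ-labelled strain (adjusted p = 0.113) and -0.19 in fes1ΔS (adjusted p = 0.114) against WT. On the FPKM of the authors, the log2 difference of SEM1 was -0.37 in the fes1Δ-labelled strain (limma, adjusted p = 0.00644), -0.24 in fes1ΔS (adjusted p = 0.0796) and -0.25 in fes1ΔL (adjusted p = 0.988) against WT. On FPKM the median of all genes was itself at -0.08 in the fes1Δ-labelled strain against WT. The ratio of CPM to FPKM of SEM1 also varied between libraries (coefficient of variation 8.15%). By edgeR on counts with the trend with gene length removed, SEM1 was at -0.10 in the fes1Δ-labelled strain (adjusted p = 0.247). RPN8, the partner of Rpn11, was at 294, 311 and 313 CPM in fes1Δ-labelled libraries, 312, 302 and 297 CPM in fes1ΔS, 306, 314 and 309.6 CPM in fes1ΔL, and 313, 324 and 316 CPM in WT, so that the first 2 strains lay just below WT without overlap, as 13.5% and 14.5% of all tested genes did (log2 -0.06 and -0.07, adjusted p = 0.545 and 0.510). RPN5, a lid scaffold subunit, was the highest subunit in fes1ΔL against WT at only 0.01 on the log2 scale, with 325, 338 and 313 CPM in fes1Δ-labelled libraries, 350.4, 350.5 and 332 CPM in fes1ΔS, 322, 333 and 323 CPM in fes1ΔL, and 317, 333 and 318 CPM in WT.

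Outside the 2 particles, UMP1 encodes a chaperone of 20S assembly that is degraded by the core it helps to mature, and BLM10 encodes an alternative cap of the 20S core. UMP1 had 116, 118 and 118 CPM in fes1Δ-labelled libraries, 118, 115 and 111 CPM in fes1ΔS, 108, 113 and 107 CPM in fes1ΔL, and 127.3, 106 and 124 CPM in WT. The WT libraries of UMP1 covered the range of the other strains, and its log2 fold changes were -0.03, -0.05 and -0.12 in the fes1Δ-labelled strain, fes1ΔS and fes1ΔL against WT. BLM10 had 274, 264 and 237 CPM in fes1Δ-labelled libraries, 268, 260.5 and 246 CPM in fes1ΔS, 226, 254 and 244 CPM in fes1ΔL, and 226, 236 and 221 CPM in WT. Every fes1Δ-labelled and fes1ΔS library of BLM10 lay above every WT library, as 11.6% and 13.6% of all tested genes did. The log2 fold change of BLM10, the highest after RPN4, was 0.18 in both strains against WT (SE 0.064, adjusted p = 0.0696 in the fes1Δ-labelled strain and 0.104 in fes1ΔS). Without the third fes1Δ-labelled library, it was called in that strain at 0.24 (adjusted p = 0.011), while with the trend with gene length removed it was at 0.08 (adjusted p = 0.279) and on FPKM at 0.09 (adjusted p = 0.409).

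**Figure D3:**
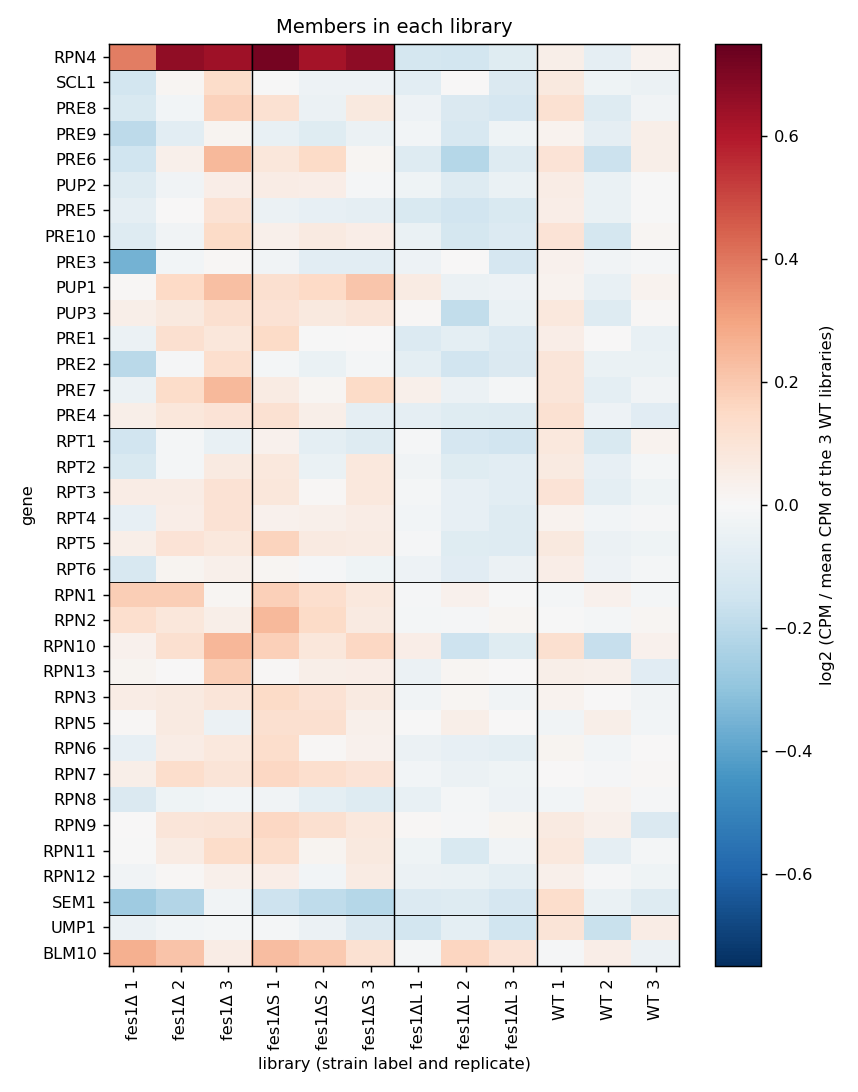
Level of each of the 36 members in each of the 12 libraries, as log2 of the CPM over the mean CPM of the 3 WT libraries (red above, blue below), ordered by complex part from RPN4 at the top. RPN4 is above the WT mean in the 6 libraries of the fes1Δ-labelled strain and fes1ΔS, and the 14 genes of the 20S core (SCL1 to PRE4) are paler or bluer together in the first fes1Δ-labelled library.

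Within the fes1Δ-labelled strain and WT, most core subunit genes were lowest or highest in the same library. In the first fes1Δ-labelled library all 14 genes of the 20S core had their lowest level of the 3 libraries, and in the third 13 of 14 had their highest, where 37.6% of all tested genes had their lowest level in the first and 39.4% their highest in the third. In WT the first library held the highest level of 12 of the 14 core genes, beside 32.2% of all tested genes. In these strains the 19S genes did so less uniformly, with 14 of 19 lowest in the first fes1Δ-labelled library and 14 of 19 highest in the first WT library. In the first fes1ΔS library 15 of the 19 19S genes and 9 of the 14 core genes were highest, beside 36.2% of all tested genes. In the first fes1ΔL library 11 of the 14 core genes and 10 of the 19 19S genes were highest, beside 35.2% of all tested genes. In the second fes1ΔL library 6 of the 19S genes were lowest and 6 highest. In the second fes1ΔS library 8 of the 14 core genes were lowest, beside 31.8% of all tested genes, and in the third 4 were lowest and 3 highest. The summed level of the 20S core was 3312, 3610.3 and 3869 CPM in fes1Δ-labelled libraries, 3661, 3574 and 3583 CPM in fes1ΔS, 3433, 3299 and 3345 CPM in fes1ΔL, and 3733, 3383 and 3517 CPM in WT. The fes1Δ-labelled libraries overlapped those of each other strain, with a mean of 3597 ± 279 CPM against 3606 ± 47.7 in fes1ΔS, 3359 ± 68.5 in fes1ΔL and 3544 ± 176 in WT (SD, n = 3 each). The summed level of the 19S particle was 5534, 5756 and 5772 CPM in fes1Δ-labelled libraries, 5965, 5708 and 5688 CPM in fes1ΔS, 5453, 5361 and 5353 CPM in fes1ΔL, and 5678, 5443 and 5474 CPM in WT. All 6 sums of the fes1Δ-labelled strain and fes1ΔS lay above all 3 of fes1ΔL, and those of fes1ΔS lay above those of WT. RPN4 was also lowest in the first fes1Δ-labelled library, at 252 CPM, but that library still stood above all 6 libraries of fes1ΔL and WT. The median coefficient of variation of the 36 members between the 3 libraries was 5.94% in the fes1Δ-labelled strain, 3.06% in fes1ΔS, 2.34% in fes1ΔL and 4.33% in WT.

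Levels between genes were compared per length, on the FPKM deposited by the authors (fragments scaled by gene length and depth), which give 1 value per library for 23 of the 36 members. In WT the 7 genes of the 20S core with a value lay at 331 to 462 FPKM (median 342), a 1.40-fold range for subunits that are present in equal copies in the particle. The 13 genes of the 19S particle lay at 151 to 993 FPKM with a median of 236, from RPN1 to the short SEM1. BLM10 was lowest of all in WT, at 33.7 FPKM. In CPM, not scaled by length, SEM1 was instead the lowest of the 36 members in WT, at 119 CPM. RPN4 stood at 149.9 FPKM in the fes1Δ-labelled strain, 160.0 FPKM in fes1ΔS, 98.3 FPKM in fes1ΔL and 108 FPKM in WT. RPN4 was thus below every subunit gene with a value in the fes1Δ-labelled strain (RPN1 at 156 FPKM), fes1ΔL and WT, while in fes1ΔS its mean FPKM was just above that of RPN1, at 157 FPKM. By limma on log2(FPKM + 1), the difference of RPN4 was 0.46 in the fes1Δ-labelled strain (adjusted p = 0.00331) and 0.56 in fes1ΔS (adjusted p = 0.00154) against WT, and -0.14 in fes1ΔL (adjusted p = 0.988).

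**Figure D4:**
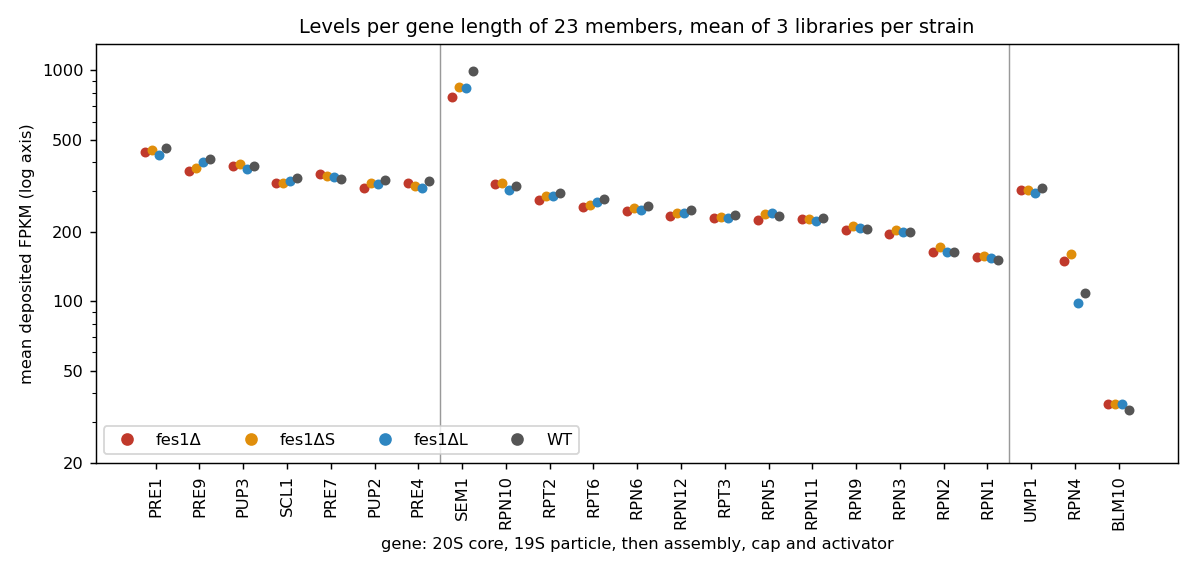
Mean deposited FPKM of 3 libraries (log axis) for the 23 members with 1 value per library, coloured by strain label and ordered by complex part. RPN4 separates into a higher pair of strains (149.9 and 160.0 FPKM) and a lower pair (98.3 and 108 FPKM), while the points of most other genes lie close together.

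The fold changes of the members against WT were related to gene length. Over the 22 members with FPKM other than RPN4, the log2 fold change against WT had a Pearson r with the logarithm of implied length (CPM over FPKM) of 0.683 in the fes1Δ-labelled strain, 0.791 in fes1ΔS and 0.829 in fes1ΔL. Over the 2682 tested genes with FPKM, the same r was 0.0968, 0.21 and 0.279, and Spearman's rho was 0.299, 0.404 and 0.459, beside 0.407, 0.597 and 0.737 for the members. These correlations are across genes of the same libraries, which are not independent, and the 3 contrasts share the WT libraries. Against fes1ΔL the r of the 22 members was 0.239 in the fes1Δ-labelled strain (rho -0.0593) and 0.455 in fes1ΔS (rho 0.232). For the fes1Δ-labelled strain against fes1ΔS it was -0.335 (rho -0.439). SEM1, with the shortest implied length (0.128 kb), lay lowest in the first 2 strains, and BLM10, with the longest (6.97 kb), lay highest after RPN4. Implied length is not a measured gene length. For SEM1 the ratio of CPM to FPKM varied most between the 12 libraries (coefficient of variation 8.15%). RPN4 (1.86 kb) stood above members of like length in the fes1Δ-labelled strain and fes1ΔS, and below them in fes1ΔL, where RPN3 (1.65 kb) was at -0.01 and RPN4 at -0.12. The trend of each library with length was then removed, by an alternative chosen after seeing the data. The median of these 22 members was 0.06, 0.07 and -0.03 in the fes1Δ-labelled strain, fes1ΔS and fes1ΔL against WT. Without the removal, the same 22 members had medians of 0.06, 0.06 and -0.06. Against fes1ΔL their median was 0.09 in the fes1Δ-labelled strain and 0.11 in fes1ΔS, both with and without the removal. With the trend removed, their range narrowed to -0.10 to 0.19 in the fes1Δ-labelled strain against WT. With it removed, SEM1 was at -0.10 in the fes1Δ-labelled strain (adjusted p = 0.247) and -0.03 in fes1ΔS (adjusted p = 0.799) against WT, and BLM10 at 0.08 (adjusted p = 0.279) and 0.06 (adjusted p = 0.482), each nearer to 0 than without the removal.

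**Figure D5:**
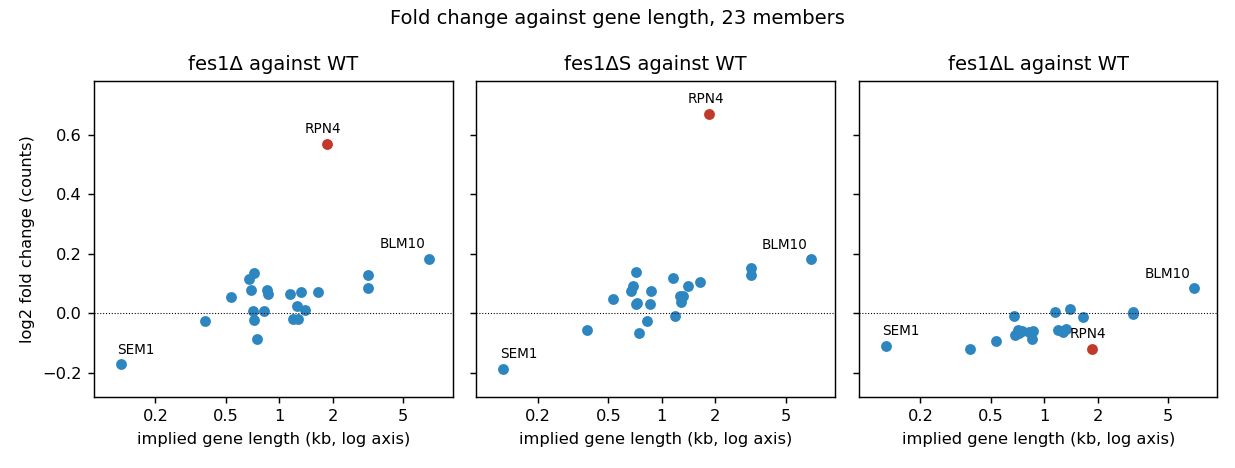
Log2 fold change against WT on counts (y axis) against implied gene length in kb (log axis) for the 23 members with FPKM, by strain label. SEM1 at the short end and BLM10 at the long end mark the slope over the 22 other members, above which RPN4 stands in the fes1Δ-labelled strain and fes1ΔS.

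Of 38 other genes of the pathway, in 5 lists, the ubiquitin gene UBI4 had the largest fold change against WT in the fes1Δ-labelled strain and in fes1ΔS. UBI4, which encodes a chain of linked ubiquitin units and is induced by stress, had 611, 666 and 647 CPM in fes1Δ-labelled libraries, 551, 543 and 512 CPM in fes1ΔS, 319, 268 and 277 CPM in fes1ΔL, and 324, 262 and 317 CPM in WT. Like RPN4, it separated the 12 libraries into a higher 6 and a lower 6, with a log2 fold change of 1.09 in the fes1Δ-labelled strain (adjusted p = 4.94e-09) and 0.83 in fes1ΔS (adjusted p = 3.63e-07) against WT. The other 4 genes of its list, which include the other ubiquitin genes RPL40A, RPL40B and RPS31, were not called by edgeR in any comparison; DESeq2 also called UBA1, the ubiquitin-activating enzyme gene, in fes1ΔS against WT and against fes1ΔL, where edgeR gave 0.21 (adjusted p = 0.0651) and 0.23 (adjusted p = 0.0518) on the log2 scale. The genes RPL40A and RPL40B are near-identical copies between which reads could be split.

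Among the 4 transcription factors known to act on RPN4 (HSF1, PDR1, PDR3 and YAP1), 1 was called in the fes1Δ-labelled strain against WT, beside 12.9% of all tested genes. PDR3, a drug-response activator, had 81.3, 86.3 and 69.8 CPM in fes1Δ-labelled libraries, 124, 93.4 and 93.6 CPM in fes1ΔS, 108, 124 and 112 CPM in fes1ΔL, and 116, 98.0 and 126 CPM in WT. It fell by 0.52 on the log2 scale in the fes1Δ-labelled strain against WT (adjusted p = 0.0174). The libraries did not overlap there, as for 13.5% of all tested genes on the lower side. In the fes1Δ-labelled strain against fes1ΔL PDR3 fell by 0.54 (adjusted p = 0.0164, kept in 11 of 14 alternatives), and in fes1ΔS against WT it was at -0.12 (adjusted p = 0.617). The call against WT was lost at an adjusted p of 0.0729 without the first and 0.0582 without the third WT library, and at 0.0785 without the first and 0.0644 without the third fes1Δ-labelled library.

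The list of genes for Rpn4 turnover holds UBR2 (the ubiquitin ligase for Rpn4), its partner MUB1, the conjugating enzyme gene RAD6 and UBR1. All 4 were above WT in both the fes1Δ-labelled strain and fes1ΔS, with medians of 0.15 and 0.20 on the log2 scale. In fes1ΔS against WT, edgeR called 1 of the 4, beside 6.66% of all tested genes, and DESeq2 called 0. UBR2 had 43.8, 41.6 and 42.7 CPM in fes1Δ-labelled libraries, 44.2, 44.6 and 44.6 CPM in fes1ΔS, 40.9, 39.5 and 38.7 CPM in fes1ΔL, and 38.9, 38.4 and 35.4 CPM in WT. Both the fes1Δ-labelled and the fes1ΔS libraries of UBR2 lay above those of fes1ΔL and WT. Against WT, 11.6% and 13.6% of all tested genes did so in these strains, and against fes1ΔL 11.6% and 12.6%. The log2 fold change of UBR2 in fes1ΔS against WT was 0.24 (adjusted p = 0.0308). Under the alternatives the adjusted p of UBR2 ran from 0.0306 to 0.13, with the call kept in 4 of 11. RAD6 was called in fes1ΔS against fes1ΔL alone (log2 0.21, adjusted p = 0.0498), and was kept in 6 of 14 alternatives. There edgeR called 1 of the 4, beside 4.83% of all tested genes, and DESeq2 called 0.

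Of the 11 genes of ubiquitin shuttles and the Cdc48 complex, NPL4, which encodes a Cdc48 cofactor, rose in fes1ΔS against WT. It had 99.0, 108.8 and 100.3 CPM in fes1Δ-labelled libraries, 108.3, 108.96 and 106 CPM in fes1ΔS, 95.7, 93.3 and 87.5 CPM in fes1ΔL, and 94.2, 88.9 and 93.2 CPM in WT. The log2 fold change of NPL4 was 0.23 in fes1ΔS against WT (adjusted p = 0.0171, kept in 10 of 14 alternatives), and also 0.23 against fes1ΔL (adjusted p = 0.0214, kept in 8 of 14). NPL4 was the single call among the 11 by edgeR in each of these comparisons, beside 6.66% and 4.83% of all tested genes. DESeq2 also called CDC48 in both, for which edgeR gave 0.19 (adjusted p = 0.05001) and 0.20 (adjusted p = 0.0575). Of the 14 assembly chaperones and proteasome-associated proteins, 0 were called by edgeR, and 0 by DESeq2, in any of the 6 comparisons, while at an unadjusted p under 0.05 there were 4 in the fes1Δ-labelled strain, 3 in fes1ΔS and 1 in fes1ΔL against WT, beside 26.1%, 20.9% and 4.06% of all tested genes. Their medians were -0.05, 0.01 and -0.09 on the log2 scale in these 3 strains.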

How the data were processed

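Gene expression was measured by poly(A)-selected, strand-marking RNA sequencing of 12 libraries (4 strains, 3 libraries each), per the labels' protocols. Raw counts, as whole numbers for each gene, are what the authors deposited in the table used. Their other table gives FPKM, which the authors scaled by gene length and depth, per the file headers. The submitters' processing notes list TopHat2 (2.0.4), HTSeq (0.6.1), Cufflinks (2.1.1), Picard (1.29), CASAVA, bcl2fastq (1.8.3) and the build sacCer2; their roles, and whether strand was used in counting, are not given there.

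All 12 libraries entered 1 fit of the counts in edgeR (version 4.0.16, R 4.3.3) with strain as its term, TMM size factors, the package's expression filter by group and the robust quasi-likelihood F test. Benjamini-Hochberg adjustment ran over the 5719 genes that passed, and a call was an adjusted p under 0.05. The FPKM were analysed by limma (3.58.1) as log2(FPKM + 1), a scale that understates changes of low genes, with genes averaging at least 1 FPKM. A total of 3501 genes with 24 FPKM values for 12 column names were left out. Alternatives were DESeq2 1.42.0, other size factors, no filter, the 2 groups compared alone, a replicate block, and leaving out each library.

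The members and the other gene lists were chosen with earlier results of these data known. RPN4, BLM10, UMP1, SEM1, called members and the 2 highest and 2 lowest subunits per strain against WT are given by library; RPN2 was added after its values were seen. The 12 columns of 2 further tables could not be matched to a label by name and were left unused, so the heat-shock samples were not analysed here. The genome reference is of another build than the files, so no coordinates, sequences or promoter motifs are given; it was used for names and neighbours, and 0 of the 36 members overlap another RefSeq gene. Intervals cover the spread between libraries of a strain.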

Additional observations from a re-analysis of the deposited data

How the results depend on the processing

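The RPN4 log2 fold change kept its direction and its side of the threshold under all 14 alternatives in each of the 6 comparisons, with ranges of 0.46 to 0.65 in the fes1Δ-labelled strain, 0.56 to 0.69 in fes1ΔS and -0.16 to -0.10 in fes1ΔL against WT. Leaving out 1 library in turn moved the number of members called between 1 and 4 in the fes1Δ-labelled strain against WT and between 1 and 5 in that strain against fes1ΔL. In the first of these it was 2 without the first fes1Δ-labelled library (PUP1 added) and 4 without the third (RPN1, SEM1 and BLM10 added), and in the second it was 5 (PRE6, PRE5, PUP1 and PRE1 added) and 2 (RPN1 added). The count was 2 on FPKM (SEM1 added, lower) and 3 with the length trend removed (PRE7 and RPN10 added) in the fes1Δ-labelled strain against WT, and 4 with the length trend removed (PUP3, PRE4 and RPN10 added) in that strain against fes1ΔL. In fes1ΔS against fes1ΔL it was 2 by DESeq2 (RPN7 added), 6 with only the 2 groups compared (PRE6, PUP1, RPT5, RPN10 and RPN7 added) and 3 with the length trend removed (PUP3 and RPN10 added). Beyond the fewer samples or genes in these fits, the cause was not tested. Over all genes, calls in the fes1Δ-labelled strain against WT numbered 736, of which 327 were higher and 409 lower, but 466 with only the 2 groups compared and 486 without the first WT library, and on FPKM 78 were higher and 363 lower. In fes1ΔS against WT they numbered 381, but 251 without the second fes1ΔS library and 208 on FPKM, of which 58 were higher and 150 lower. In fes1ΔL against WT they numbered 4, but 10 with only the 2 groups compared. In the fes1Δ-labelled strain against fes1ΔL they numbered 544, but 359 without the second and 354 without the third fes1ΔL library, and on FPKM 66 were higher and 342 lower. In fes1ΔS against fes1ΔL they numbered 276, but 464 with only the 2 groups compared, and on FPKM 57 of 184 were higher. In the fes1Δ-labelled strain against fes1ΔS they numbered 141, but 59, 90 and 73 without fes1ΔS replicates 1, 2 and 3 in turn and 40 on FPKM. With the length trend removed, over only 2682 genes, they numbered 375 in the fes1Δ-labelled strain, 213 in fes1ΔS and 3 in fes1ΔL against WT, 338 in the fes1Δ-labelled strain and 171 in fes1ΔS against fes1ΔL, and 73 between the fes1Δ-labelled strain and fes1ΔS. Deviations of same-numbered libraries from their strain's mean had correlations of -0.189 to 0.289 between strains, over 0.1 in 4 of 18 pairs. For fes1ΔL and WT they were 0.289, 0.213 and 0.096. For the fes1Δ-labelled strain and fes1ΔL they were -0.189, 0.0284 and -0.127. These values do not settle whether the numbers pair the libraries. With a replicate block RPN4 was at 0.57 and 0.67 in the fes1Δ-labelled strain and fes1ΔS against WT, and 1 member was called in each. With 3 libraries per strain, the 95% intervals of the subunit genes against WT in the fes1Δ-labelled strain and fes1ΔS reached to between -0.33 and 0.32 on the log2 scale. This is the size of change that the depth and spread leave possible for each gene taken alone, without adjustment over genes.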
